A study of Arabidopsis thaliana with 3 samples.

Results

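DIG1 and DIG2 are Arabidopsis thaliana proteins studied here as regulators of transcription in the response to abscisic acid (ABA), the hormone of drought stress and seed dormancy. The regions described are the DIG1 peaks that touched no DIG2 peak. They were chosen by the called intervals of both lists, as the distinct DIG1 intervals on chromosomes 1 to 5 that shared no base with any DIG2 interval. There were 347 of them among 11343 DIG1 peaks (3.06%), and 24783 peaks were present in the DIG1 and DIG2 lists together. The number depends on the lists compared: it was 904 when the longer DIG2 list was cut to the length of the DIG1 list, and 195 when both lists kept only −log10 p of at least 30. Each setting counted anew which DIG1 peaks touched none of the remaining DIG2 peaks, so both counts include peaks outside the 347. Of the 347 themselves, 46 had −log10 p of at least 30. Both lists come from chromatin immunoprecipitation and sequencing (ChIP-seq) of whole Col-0 seedlings grown for 4 days in the dark in hydroponics and given 10 uM dexamethasone for 6 hours. An antibody against GFP precipitated GFP by itself in the control sample, GFP joined to DIG1 in another and GFP joined to DIG2 in the last, with 1 sample per group. The peaks of the GFP control were not analysed here. The sources used here do not say which promoter drives the tagged proteins or how many plant lines were used.

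In ChIP-seq, protein is crosslinked to DNA in the tissue, the DNA is sheared, and fragments held by the tagged protein are sequenced. A peak is a stretch where fragments pile up above a modelled background, and its summit is the position with the most fragments. Regulators of transcription are usually found near gene ends, where promoters and other control sequences lie. The deposited lists give for each summit the authors' fold enrichment over background and the authors' −log10 p, and strength below means that −log10 p. With 1 list per factor and unknown read depth, the tests speak of the lists themselves, and no spread between experiments can be given. A DIG1 peak without a DIG2 peak is a region where no DIG2 peak was called, which does not show that DIG2 was absent.

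The strongest of the 347 peaks lay inside the gene of a factor itself. It spanned chr3:17967548-17968510 (TAIR10, as are all coordinates here) with 2 summits of fold 6.82 and 6.67 (−log10 p 176 and 173), both inside AT3G48510, and it covered 77.8% of that gene. AT3G48510 is the locus under which DIG1 is known from the published work on these factors, whereas the sample title gives AT3G45810, a locus that the RefSeq gene table lists as RbohJ, a respiratory burst oxidase homologue. No peak of either list lay within 3000 bp of AT3G45810. No DIG2 peak touched AT3G48510. A DIG2 summit lay 890 bp outside the gene, beside a weaker DIG1 summit at 889 bp, and the nearest DIG2 interval was 682 bp away from the DIG1 interval.

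A like signal in the DIG2 list lay at AT5G50360, the locus that the sample title gives for DIG2. Unlike the DIG1 peak over AT3G48510, it touched a peak of the other list. There a DIG2 interval (chr5:20505366-20507076) covered 78.1% of the gene, with a summit of fold 6.99 inside the gene and a stronger one of fold 9.71 at 425 bp outside it. The DIG1 peak at that locus (chr5:20506397-20507059, fold 7.04) had a single summit 433 bp outside the gene and covered 0% of it. All 663 bp of this DIG1 peak lay within the DIG2 interval. So each list had a broad signal over the body of 1 of these 2 genes, the DIG1 list over AT3G48510 and the DIG2 list over AT5G50360. Such cover was not peculiar to AT3G48510. Of the 347 peaks, 9 covered at least as much of a protein-coding gene as they left uncovered, the peak over AT3G48510 among them. Signal from the native gene and from the introduced fusion gene cannot be told apart in these lists.

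**Figure D1:**
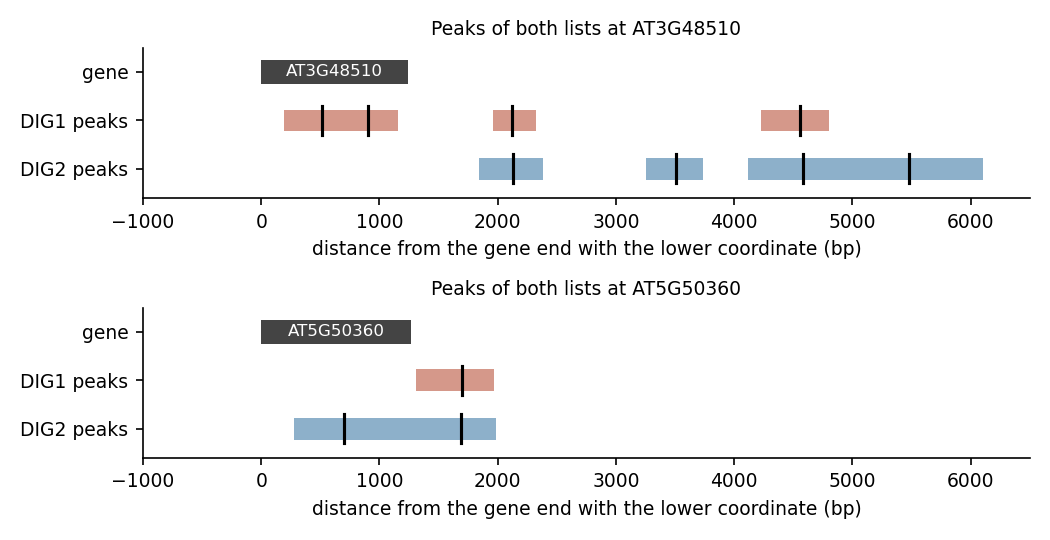
Intervals (coloured bars) and summits (black ticks) of the DIG1 and DIG2 lists around AT3G48510 and AT5G50360, by distance in bp from the gene end with the lower coordinate. Only DIG1 has an interval over the body of AT3G48510 (77.8% of the gene), and only DIG2 has one over the body of AT5G50360 (78.1%).

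Most of the 347 peaks were weak within the DIG1 list. The list was divided into 10 bins of equal size by rank. The strongest bin held 0 of these peaks among 1135, which with a 95% Wilson interval allows up to 0.337%, and the weakest held 176 of 1134 (15.5%, 13.5 to 17.7%). The weakest 3 bins held 37, 94 and 176. Their fold ranged from 1.74 to 6.82 with a median of 2.29, against a median of 3.32 for the 10996 DIG1 peaks that touched a DIG2 peak. Their −log10 p ranged from 16.04 to 176 with a median of 19.9, against a median of 56.1. Their median width was 373 bp, against 599 bp for touching DIG1 peaks and 449 bp after weighting to the same strength bins. More than 1 summit was found in 2 of them (0.576%), against 15.0% of touching DIG1 peaks and 4.24% after weighting. The rule rests on the same peak calls as these values, which are therefore given as a description.

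**Figure D2:**
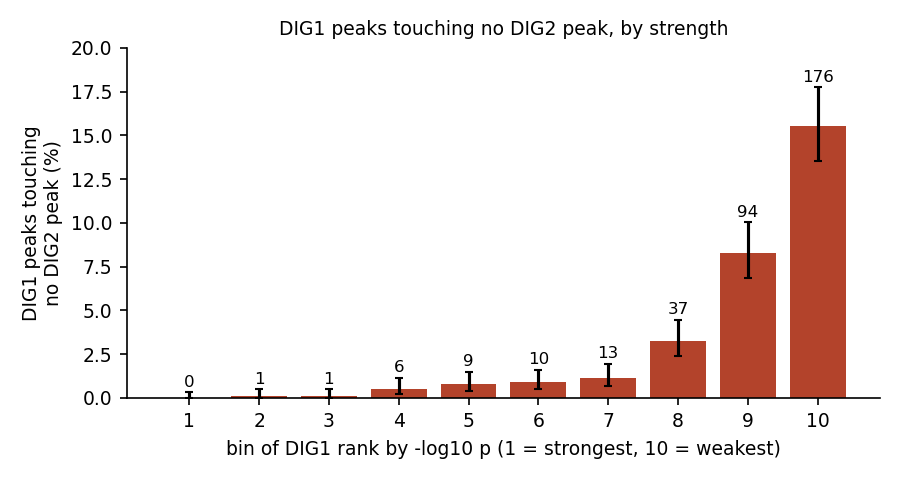
Share of DIG1 peaks that touched no DIG2 peak (%) in 10 bins of DIG1 rank by −log10 p, with 95% Wilson intervals and the number of such peaks above each bar. The share is 0% in the strongest bin and 15.5% in the weakest.

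No peak sat at the edge of the rule. The smallest gaps between one of the 347 intervals and a DIG2 interval were 140 bp (chr2:10128279-10128661, 892 bp from AT2G23790, fold 2.19), 152 bp (chr5:21095451-21095977, inside AT5G51910, listed as TCP19, fold 2.17) and 163 bp (chr1:20873466-20873907, inside AT1G55840, fold 2.22). On the other side, the shortest overlaps of DIG1 peaks that did touch a DIG2 peak were 217, 223 and 229 bp, and each covered 100% of the shorter interval. These lay over 1000 bp from any gene on chromosome 2 (fold 2.16), at ICU2 and ALC (fold 2.104) and at AT3G45040 and AT3G45050 (fold 2.25). The smallest share of the shorter interval among touching peaks was 51.3%, at AT5G21940. The median gap to the nearest DIG2 interval was 3503 bp, and 63 of the 347 peaks were under 1000 bp from one. The median gap to the nearest other DIG1 peak was 4069 bp, against 1894 bp for DIG1 peaks touching a DIG2 peak weighted to the same strength bins.

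The peaks lay inside protein-coding genes more often, and far from genes less often, than DIG1 peaks of the same strength that touched a DIG2 peak. The strongest summit of a peak could fall within a protein-coding gene, in the 1000 bp beyond either gene end, or farther away. Inside genes lay 146 of 347 (42.1%, 95% Wilson interval 37.0 to 47.3%), where the background of all DIG1 peaks is 28.6%. Touching peaks weighted to the same strength bins had 31.3% there. The Mantel-Haenszel odds ratio over strength bins was 1.59 (95% interval 1.27 to 1.99, Cochran-Mantel-Haenszel chi-square test, two-sided, adjusted p = 8.78e-05 over 3 position classes). Over 1000 bp from genes lay 18 of 347 (5.19%, 3.31 to 8.05%), where the background is 20.6% and the strength-weighted share of touching peaks was 19.3%. The odds ratio there was 0.228 (0.141 to 0.370, same chi-square test, adjusted p = 2.39e-10). The 3 classes together hold every peak, so a lower share in 1 class raises the others, and these are not separate results.

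The class just outside genes did not pass the test. It held 183 of 347 peaks (52.7%, background 50.8%) with an odds ratio of 1.15 (0.919 to 1.44, chi-square test as above, adjusted p = 0.222), and its direction depended on the distance that counts as near, with 1.30 at 500 bp and 0.796 at 2000 bp. Within chromosomes the odds ratio inside genes ran from 1.22 on chromosome 3 (0.724 to 2.07) to 2.39 on chromosome 1 (1.54 to 3.69), and the interval excluded 1 on chromosome 1 only. Without chromosome 1 it was 1.37 (chi-square test, adjusted p = 0.0345). The odds ratio far from genes was under 1 on each of the 5 chromosomes, from 0.0969 to 0.346, with every interval under 1. The chromosomes had like shares of these peaks, from 2.91% of DIG1 peaks on chromosome 4 to 3.203% on chromosome 3.

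Of 13440 DIG2 peaks, 2669 (19.9%) touched no DIG1 peak. Inside genes lay 31.8% of these, against 36.0% of touching DIG2 peaks of like strength (odds ratio 0.839, 0.742 to 0.949, chi-square test, adjusted p = 0.00502). That direction depended on matching for strength: all touching DIG2 peaks had 28.4% inside genes, and without matching the odds ratio was 1.17 (Fisher's exact test, two-sided, adjusted p = 0.000723). Just outside genes lay 44.8% against 50.6% (odds ratio 0.770, 0.686 to 0.863, chi-square test, adjusted p = 1.16e-05). Over 1000 bp from genes lay 23.5% against 13.4% (odds ratio 1.95, 1.69 to 2.26, chi-square test, adjusted p = 6.72e-19), and without matching the odds ratio was 1.196. The difference between the DIG1 and DIG2 odds ratios was not itself tested.

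**Figure D3:**
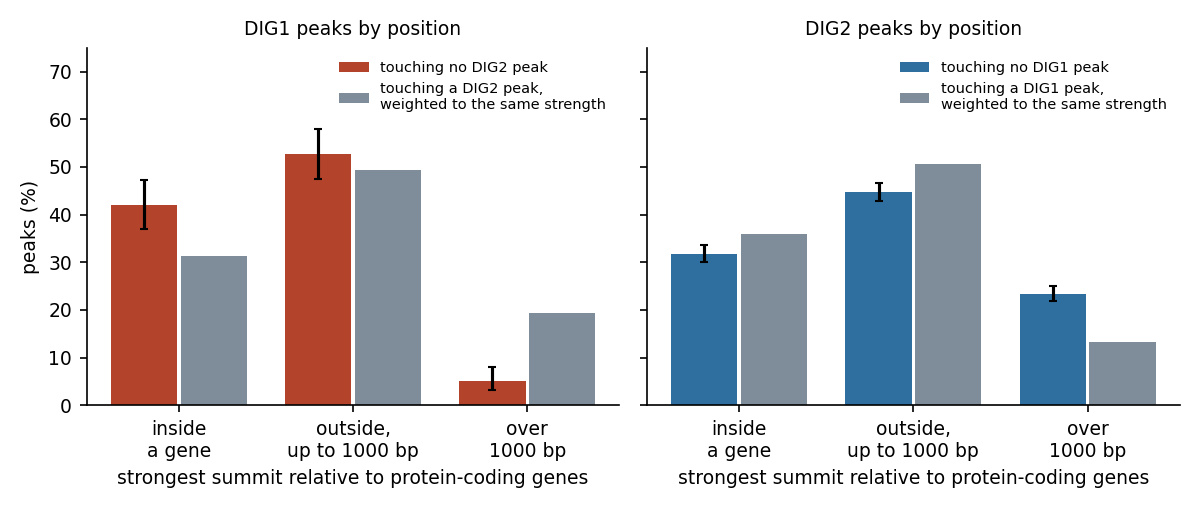
Share of peaks (%) by position of the strongest summit, for DIG1 peaks touching no DIG2 peak (left, red) and DIG2 peaks touching no DIG1 peak (right, blue) with 95% Wilson intervals, beside touching peaks of the same list weighted to the same strength (grey). Far from genes the share is 5.19% against 19.3% for DIG1 and 23.5% against 13.4% for DIG2.

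Within this arrangement, summits of the 347 peaks lay nearer to gene ends than those of strength-weighted touching peaks. The median distance from summit to the nearest gene end was 130 bp, against 252 bp in strength-weighted touching peaks. Within 100 bp of a gene end, on either side, lay 142 of 347 (40.9%, 35.9 to 46.2%) against 30.02%. Deep inside genes, over 500 bp from either end, lay 21 (6.05%, 3.99 to 9.07%) against 8.02%. The outermost 100 bp of genes held 71 summits (20.5% against 13.9%), and the stretch inside genes between 200 and 500 bp from an end held 31 (8.93% against 4.28%). Outside genes, the stretch from 100 to 200 bp held 49 (14.1% against 10.1%) and that from 200 to 500 bp held 34 (9.80% against 12.0%). These distances have no test. The gene table gives no strand, so starts and ends of genes were not told apart.

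**Figure D4:**
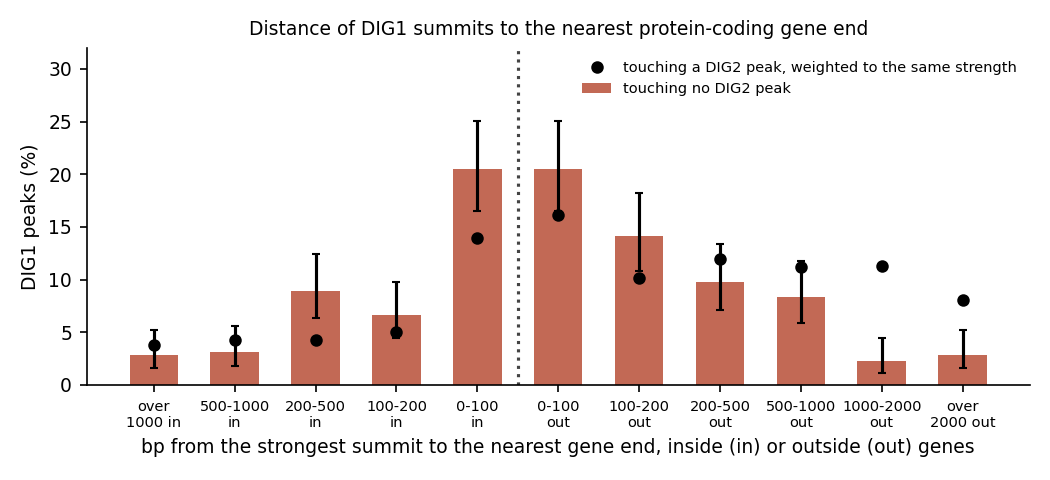
Share of DIG1 peaks (%) by distance in bp from the strongest summit to the nearest protein-coding gene end, inside genes (left of the dotted line) and outside. Bars are the 347 peaks touching no DIG2 peak with 95% Wilson intervals, and points are touching peaks weighted to the same strength; bars are above the points within 100 bp of a gene end and below them beyond 1000 bp.

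The surroundings of these peaks were compact. Where a summit lay between genes, the median stretch between the flanking genes was 1536 bp, against 2650 bp in strength-weighted touching peaks. Of the 347 peaks, 168 (48.4%, 43.2 to 53.7%) had 2 or more protein-coding genes at or within 1000 bp of the summit, against 30.9%. In 14 of them (4.03%, 2.42 to 6.66%) the summit lay inside more than 1 gene, against 0.497%. Among these were the overlaps of COL2, a CONSTANS-like gene, with AT3G02390 (fold 3.05), of PHS2, for an alpha-glucan phosphorylase, with the phosphate transporter gene PHT4;3 (fold 2.37), and of the glutathione transferase genes GSTU18 and ERD9 (fold 2.33). These measures were picked with their values in view and have no test.

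A group of the peaks lay at or near transfer RNA (tRNA) genes, which RNA polymerase III transcribes. Of the 347 peaks, 12 (3.46%, 1.99 to 5.95%) had their summit within 250 bp of a tRNA gene, against 47 of 10996 touching DIG1 peaks (0.427%) and 0.686% after weighting to the same strength. The background over all DIG1 peaks was 0.52%. All 12 were in the weakest 3 strength bins, with −log10 p from 16.5 to 26.3, and 11 of them lay outside protein-coding genes. In 6 the summit was inside the tRNA gene itself, at AT3G02715 (annotated for serine, fold 2.54), AT4G14345 (histidine, 2.403), AT1G11640 (tryptophan, 2.22), AT4G26375 (isoleucine, 2.25), AT5G49435 (histidine, 1.94) and AT5G52815 (lysine, 2.03). The other summits were 7 to 107 bp outside tRNA genes for valine and aspartate (AT3G59923 and AT3G59926 under a single peak), proline, glutamate, serine, aspartate and glutamine. In the DIG2 list, 10 of 2669 peaks touching no DIG1 peak (0.375%) and 47 of 10771 touching ones (0.436%) lay as near to a tRNA gene.

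Small nuclear RNA (snRNA) genes make parts of the spliceosome. Summits of 3 of the 347 peaks lay within 250 bp of one, U2.11 (fold 2.94, 23 bp outside), U2.1 (fold 2.26, 77 bp) and U4.3p (fold 3.39, 150 bp), all 3 also inside a protein-coding gene. Among touching DIG1 peaks there were 5 of 10996 (0.0455%, or 0.112% weighted to the same strength), and the background was 0.0705%. In the DIG2 list there were 3 of 2669 peaks touching no DIG1 peak (0.112%) and 6 of 10771 touching ones (0.0557%). Genes annotated as miscellaneous RNA had 5 of the 347 (1.44%, 0.617 to 3.33%) against 0.441% weighted, and transcribed pseudogenes had 4 (1.15%, 0.449 to 2.93%) against 0.357%. Long non-coding RNA genes had 12 of the 347 (3.46%) against 4.37% in strength-weighted touching peaks. The RNA classes, too, were picked with their values in view and have no test. Many tRNA and snRNA genes have near-identical copies, and the sources used here do not say how reads with several matches were handled, so the copy from which such signal came is uncertain and the part of shared reads in these counts was not tested.

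**Figure D5:**
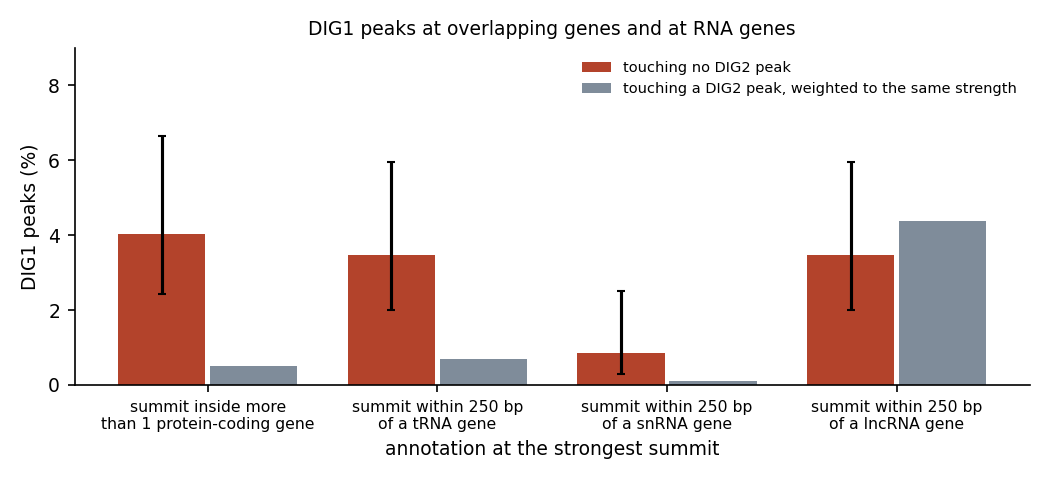
Share of DIG1 peaks (%) whose strongest summit lay inside more than 1 protein-coding gene or within 250 bp of a tRNA, snRNA or lncRNA gene. Red bars are the 347 peaks touching no DIG2 peak with 95% Wilson intervals, grey bars touching peaks weighted to the same strength; for tRNA genes the shares are 3.46% and 0.686%.

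After AT3G48510, the strongest of the 347 peaks were spread over genes of many kinds. The 20 strongest ran from DIG1 rank 1772 to 6202 and from fold 6.82 to 3.18, with 7 inside genes, 13 just outside and 12 within 100 bp of a gene end. The second (chr1:28661612-28662010, fold 5.06, −log10 p 140) lay inside AT1G76405, 122 bp from AT1G76400. The third (chr2:19615400-19615881, fold 4.22) lay inside CRR6, needed to assemble the chloroplast NDH complex of cyclic electron flow, and 98 bp from NET3C, which encodes an actin-binding protein. The next were 582 bp from AT2G29605 (chr2:12660483-12660842, fold 4.90) and 159 bp from AT5G20100 (chr5:6789563-6789982, fold 4.30). The sixth (chr4:6817372-6818216, fold 4.29) lay 77 bp from AT4G11175 and 642 bp from AT4G11170, listed as Resistance Methylated Gene 1. CRR6, AT2G29605, AT5G20100, AT4G11175 and AT4G11170 had no other DIG1 summit and no DIG2 summit inside or within 1000 bp, while AT1G76405 and NET3C had 1 of each.

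Further down these 20, peaks lay 63 bp from ALY1 (fold 3.72), whose Drosophila relative Aly controls genes of spermatocytes, and inside PNG1, for a peptide N-glycanase (fold 3.39). Another, of fold 3.53, lay 53 bp from AT2G17990 and 96 bp from TAF14, a relative of yeast YAF9. Others lay 995 bp from NAPRT2, an NAD salvage gene (fold 3.68), 54 bp from CaS, the gene of a thylakoid calcium-sensing protein (fold 3.18), 477 bp from the hexokinase-like gene HKL3 (fold 3.37) and 120 bp from AT1G04200, which had 1 DIG2 summit inside or within 1000 bp (fold 3.58, also 550 bp from TPR3, a tetratricopeptide repeat gene). The rest were at AT1G42480, AT1G20480, AT1G66810, AT3G10780, AT4G39700, AT1G43580 and AT3G47675, with folds from 3.19 to 3.97. Inside or within 1000 bp, TAF14 also had 2 DIG2 summits and 2 other DIG1 summits, and HKL3 and AT3G10780 had 1 of each. The 5 weakest peaks had folds from 1.999 to 2.28. They were 13 bp from AT2G29260, inside AT2G33550, inside AT4G21930 and, for the other two, over 1000 bp from any gene.

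One of these summits lay inside or within 1000 bp of 506 protein-coding genes among 27444 (1.84%). Any DIG1 summit was found so for 37.7% of genes and a DIG2 summit for 42.3%. Of the 506 genes, 150 (29.6%) also had a DIG2 summit inside or within 1000 bp, and 122 (24.1%) another DIG1 summit. The remaining 355 genes (70.2%) had neither. Within a narrower window, from 1000 bp outside to 200 bp inside either gene end, 344 genes had one of these summits and no DIG2 summit, among 389 (1.42%) that had any DIG1 summit and no DIG2 summit. The 344 became 885 with the DIG2 list cut, 207 with −log10 p of at least 30 in both lists and 224 with a window of 500 bp outside genes.

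At 6 genes there were 2 of the peaks. ERD9, a glutathione transferase gene first found as responsive to dehydration, had them at fold 2.33 (inside) and 2.19 (98 bp outside). LSU2, a gene induced by low sulfur, had them at 2.28 (inside) and 2.24 (942 bp outside). The others were AT3G47675, AT1G21780, AT3G19970 and AT3G03060, with folds from 2.03 to 3.19. None of these 6 genes had another DIG1 summit or a DIG2 summit inside or within 1000 bp.

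Genes of the ABA core pathway had none of the peaks. Of 41 genes for ABA receptors, clade A PP2C phosphatases, SnRK2 kinases and ABF or ABI transcription factors, 0 had one. A DIG1 peak touching a DIG2 peak was at 32 of them (78.0%), against 36.3% of all protein-coding genes. A DIG2 summit was at 33 (80.5%), against 42.3%. With a background of 1.84% fewer than 1 of 41 genes would be met, so the 0 does not set this list apart. The same holds for the 0 of 18 histone genes, 0 of 37 actin, tubulin and ubiquitin genes and 0 of 46 aquaporin genes.

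Of 54 photosystem and light-harvesting genes, 5 (9.26%) had one of the peaks, against the background of 1.84%. This list was also rich in the other peaks. A DIG1 summit of a touching peak lay at 36 of the 54 (66.7%), against 36.3% of all protein-coding genes. A DIG2 summit lay at 36 (66.7%), against 42.3%. They were LHCB2.1 (fold 2.67, summit 28 bp outside the gene), LHCB2.2 (2.45, 43 bp) and LHB1B1 (2.204, 25 bp), which encode light-harvesting proteins of photosystem II, and PSAH2 (2.497, 44 bp) and PSAK (2.25, inside), which encode subunits of photosystem I. At LHCB2.1, LHCB2.2 and PSAH2 there was no other DIG1 summit and no DIG2 summit, while LHB1B1 had 1 DIG2 summit and PSAK 2. LHCB2.1 and LHCB2.2 are close copies of each other, so reads at these genes may not be assigned with certainty. The lists were chosen with earlier results known and were not tested.

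In the other lists, CRR6 was the only gene of 25 of the chloroplast NDH complex (4%). The only one of 17 clock genes (5.88%) was ZTL (fold 2.36, inside), a blue-light receptor that targets clock proteins for breakdown. Of 67 genes with ribosomal protein names, RPL12-B and RPL12-C (2.99%) shared a peak of fold 1.96, which is also the one at the proline tRNA gene AT3G27845. HSP101 (fold 2.13, 138 bp outside), a chaperone of heat tolerance, was the only one of 64 heat shock genes (1.56%). With so few genes in each, these shares do not set the lists apart from the background of 1.84%. DPA (fold 2.17, 96 bp outside), a partner of E2F proteins in the cell cycle, was the only one of 110 genes whose table entry holds the words transcription factor, a share of 0.909% that lies near the background. That list catches only such names, and it misses transcription factor genes with a peak such as TT8 and COL2.

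Some single genes are named for their known roles; they were picked from the 506 with their values in view, belong to no counted group and have no share to set against the background. CRY2 (fold 2.36, summit 42 bp inside the gene end) and PHOT2 (fold 2.22, 480 bp inside) encode blue-light receptors. OHP (fold 3.26, 27 bp outside) encodes a single-helix relative of light-harvesting proteins, and ARC5 (fold 2.19, 5 bp outside) a dynamin-like protein of plastid division. UGT71B6 (fold 2.14, inside), whose product attaches glucose to ABA, YUC3 (fold 2.28, 183 bp outside), an auxin synthesis gene, and TT8 (fold 2.84, 152 bp outside), a bHLH regulator of flavonoid synthesis, had neither a DIG2 summit nor another DIG1 summit inside or within 1000 bp. At EIN2 (fold 2.22, 178 bp outside), the central gene of ethylene signalling, and at CRY2, 1 DIG2 summit was present elsewhere at the gene.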

How the data were processed

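The data were ChIP-seq peak lists of GFP fusions of DIG1 and DIG2, 1 list each. Per the submitters' processing notes, Bowtie 0.12.7, MACS2 and the TAIR10 build were used, with MACS2 version, background sample, replicate pooling and depth not given in the sources used here. Each experiment had replicates per the series' design text, yet 1 list stands for each factor. The deposited lists have the narrowPeak layout, with a fold enrichment (a ratio), a −log10 p, a −log10 q and a score per summit. The deposited score was not used. The smallest deposited −log10 p was 16.0028 in the DIG1 list and 16.0133 in the DIG2 list. In the main results fold and −log10 p served only to describe and rank peaks within a list. Among the alternatives, −log10 p also set the threshold of 30 in both lists and the cut of the DIG2 list.

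Rows with the same interval were merged into 1 peak, represented by the summit with the highest −log10 p; coordinates count from 1. Genes came from a RefSeq table of assembly TAIR10.1 (38312 entries, 27444 nuclear protein-coding genes), without strand, exons or sequence; no coordinate of it is printed. Shifting DIG1 summits by up to 2000 bp in steps of 50 bp, the fewest lay inside genes at shifts of -50 to 50 bp on each chromosome. The planned motif search and sequence display were not run because no sequence was used here.

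Position was compared by the Cochran-Mantel-Haenszel chi-square test over 10 bins of DIG1 rank, of which the 9 that held both kinds of peak entered (statsmodels 0.14.6). DIG2 peaks were compared over 10 bins of DIG2 rank, of which 6 entered. Benjamini-Hochberg adjustment covered the 3 classes of a list, with calls at adjusted p under 0.05. The stratified test was checked on simulated data. Weighted shares average touching peaks by bin in the proportions of the 347 peaks. Wilson intervals (95%) cover counting error only. Alternatives were other bins, widths, distances, thresholds, overlap rules, list lengths and annotation. Exclusions of each chromosome and of peaks at RNA genes, and other matching of the DIG2 list, were added after seeing the data. By plan, named genes were those at the 20 strongest and 5 weakest peaks, at the edge of the rule, at 2 or more of the peaks, in 10 gene lists, and the factors' loci. Genes named at gene overlaps, as RNA genes or for their known roles were outside this plan and picked with their values in view. Peaks, lists and rules were chosen with earlier results of these data known.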

Additional observations from a re-analysis of the deposited data

Results flagged for a closer look

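After matching on strength, the position of unshared peaks relative to genes went opposite ways in the DIG1 and DIG2 lists. Inside genes the odds ratio against touching peaks was 1.59 for DIG1 peaks touching no DIG2 peak and 0.839 for DIG2 peaks touching no DIG1 peak. Without matching the DIG2 value was 1.17, on the same side as DIG1. Over 1000 bp from genes the odds ratios were 0.228 and 1.95, and 1.196 for DIG2 without matching. There was 1 list per factor and the difference between the lists was not tested.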

How the results depend on the processing

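For DIG1, the direction and call inside genes (odds ratios 1.32 to 1.85) and far from genes (0.196 to 0.388) held in all 19 alternatives run for each, the largest adjusted p being 0.0345 and 0.000887. Some of these settings could not differ from the main result. Nearness of 500 or 2000 bp does not enter the class inside genes, where the odds ratio stayed at 1.59. Counting peaks that share under 50% of the shorter interval gave the same 347 peaks, so both odds ratios were repeated. Just outside genes, by the same chi-square test, the odds ratio of 1.15 became 1.30 with nearness of 500 bp (adjusted p = 0.0217) and 1.24 with the DIG2 list cut to the length of the DIG1 list (adjusted p = 0.00595), and it reversed to 0.796 with nearness of 2000 bp (adjusted p = 0.0459) and to 0.977 with all annotated genes (adjusted p = 0.835). In the DIG2 list, the odds ratio inside genes, 0.839, reversed to 1.17 without matching on strength (Fisher's exact test, adjusted p = 0.000723), and 5 or 20 bins gave 0.857 and 0.839. The number of DIG1 peaks touching no DIG2 peak, 347, was 195 with −log10 p of at least 30 in both lists and 904 with the DIG2 list cut. The gene count of 344 was 207 and 885 under these and 224 with a window of 500 bp outside genes. A shortened DIG2 list leaves fewer peaks to touch, so the 195 and 904 include DIG1 peaks that touch a DIG2 peak of the full list. The odds ratios under these settings are thus not for the 347 peaks alone. Sharing under 50% of the shorter interval gave the same 347. Of the 20 strongest peaks, 19 or 20 remained in the 6 alternatives that recount the peaks. These 20 touched no DIG2 peak and had −log10 p of at least 47.3. A shortened DIG2 list, the threshold of 30 or the 50% rule thus could not remove any. Only a gap of at least 500 bp, 1 DIG1 peak per 2000 bp and exclusion at RNA genes could do so. No paired analysis was possible because each group has a single sample. Read depth is unknown, and each of these peaks lacks only a called DIG2 peak.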
